A study of Homo sapiens with 18 samples.

Results

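MHC class II transcripts and their coactivator CIITA were followed in G401 cells, a malignant rhabdoid tumour cell line, after inhibition of the histone methyltransferase EZH2 and after loss of RB1. The set held 10 of the 55765 gene symbols in the deposited table: the classical chain genes HLA-DRA, HLA-DRB1, HLA-DPA1, HLA-DPB1, HLA-DQA1 and HLA-DQB1, the peptide-exchange chain genes HLA-DMA and HLA-DMB, the invariant chain gene CD74, and CIITA. They were taken by name from the table and all 10 were found. The 6 groups of 3 libraries were an RB1-intact control line (WT), cut by CRISPR/Cas9 at the AAVS1 safe harbour instead, and 2 lines with a biallelic RB1 deletion (E1 and F2), each given tazemetostat, an EZH2 inhibitor, at 10 µM or the same volume of DMSO for 11 days. E1 and F2 are 1 clone each, so a difference between them and WT belongs to that clone, and whether the control line was cloned was not given in the sources used here. The 3 libraries of a group were labelled as biological replicates, and p-values measure the spread between those libraries.

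MHC class II molecules are pairs of an alpha and a beta chain (HLA-DR, -DP and -DQ) that present peptides from endosomes to CD4 T cells, and they are carried mainly by B cells, macrophages and dendritic cells. CIITA does not bind DNA itself. It joins a complex of RFX, CREB and NF-Y proteins on paired elements of class II promoters, the X box and the Y box, and most other cell types make CIITA only when interferon gamma acts on them, in part through IRF1.

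The promoters are shown because the members share this regulator and yet did not all change in the same direction. RefSeq promoters (GRCh38.p14, from 250 bases before to 50 bases after a gene start) were matched for 8 of the 10 members. An X-like run of letters, AGNNACNGA, on either strand was in the promoters of 6 of these 8 genes and in 15.3% of all 35116 promoters, and a Y-like run, ATTGG, was in those of 7 and in 34.6% of all. The X letters followed on the same strand by the Y letters, 10 to 30 bases apart, were in 4 members and in 0.293% of all promoters. The letters were chosen after these promoters had been seen, and a match describes the sequence only. In the 75-base windows of those 4 genes and of HLA-DPA1 and HLA-DMB, which hold the X letters without the pair, capitals mark the X letters, then the Y letters or their complement, and each window ends before the gene start and reads 5′ to 3′ on the gene's strand.
HLA-DRB1, chr6:32589863-32589937, minus strand: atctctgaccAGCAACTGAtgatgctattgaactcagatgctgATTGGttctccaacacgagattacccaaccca
HLA-DQA1, chr6:32637294-32637368, plus strand: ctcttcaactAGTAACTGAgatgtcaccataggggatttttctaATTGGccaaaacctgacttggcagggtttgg
HLA-DQB1, chr6:32666714-32666788, minus strand: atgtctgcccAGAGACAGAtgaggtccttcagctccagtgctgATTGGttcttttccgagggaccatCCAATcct
HLA-DMA, chr6:32953146-32953220, minus strand: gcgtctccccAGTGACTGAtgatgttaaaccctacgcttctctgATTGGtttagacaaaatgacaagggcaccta
HLA-DPA1, chr6:33073684-33073758, minus strand: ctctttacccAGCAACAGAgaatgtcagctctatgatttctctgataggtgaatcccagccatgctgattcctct
HLA-DMB, chr6:32941052-32941126, minus strand: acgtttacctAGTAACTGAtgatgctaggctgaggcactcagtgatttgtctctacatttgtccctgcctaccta

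The values are normalized counts, that is, reads per gene divided by a size factor per library, and whole reads could be recovered from them. Depth was 25709489 to 39314860 reads per library. As checks of the labels, RB1 transcript was at least 2300 normalized counts in each WT library and 505 to 1045 in the clones, and SMARCB1, whose loss defines rhabdoid tumours, had 0 reads in all 18 libraries. A value of 3 reads, taken as the floor of detection for counting error only, was worth 2.62 to 3.64 normalized counts in the DMSO libraries. Differences were tested with limma on log2(value + 1) over 16154 genes and called at an adjusted p under 0.05 with a log2 change of at least 1, and because of the added 1 such changes understate those of low genes.

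CIITA, the coactivator, was not detectable in DMSO and rose with tazemetostat in the 3 lines. It had 0 reads in 9 of 9 DMSO libraries. With tazemetostat it was at 45.3, 46.8 and 44.3 normalized counts in WT, 11.7, 6.77 and 9.42 in E1 and 23.3, 27.3 and 25.9 in F2. All 9 tazemetostat libraries lay above the 9 DMSO libraries, and the lines did not overlap: WT was highest, F2 came next and E1 lowest. Against the floor the rise was at least 16.5-fold in WT, at least 3.28-fold in E1 and at least 7.78-fold in F2. The limma log2 changes of WT, E1 and F2 were 5.54 ± 0.25 (SE), 3.34 ± 0.25 and 4.72 ± 0.25, with adjusted p of 4.71e-13, 1.08e-09 and 4.9e-12. In bulk RNA, fewer cells making a transcript and less transcript per cell cannot be told apart, here and for every gene that follows.

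**Figure D1:**
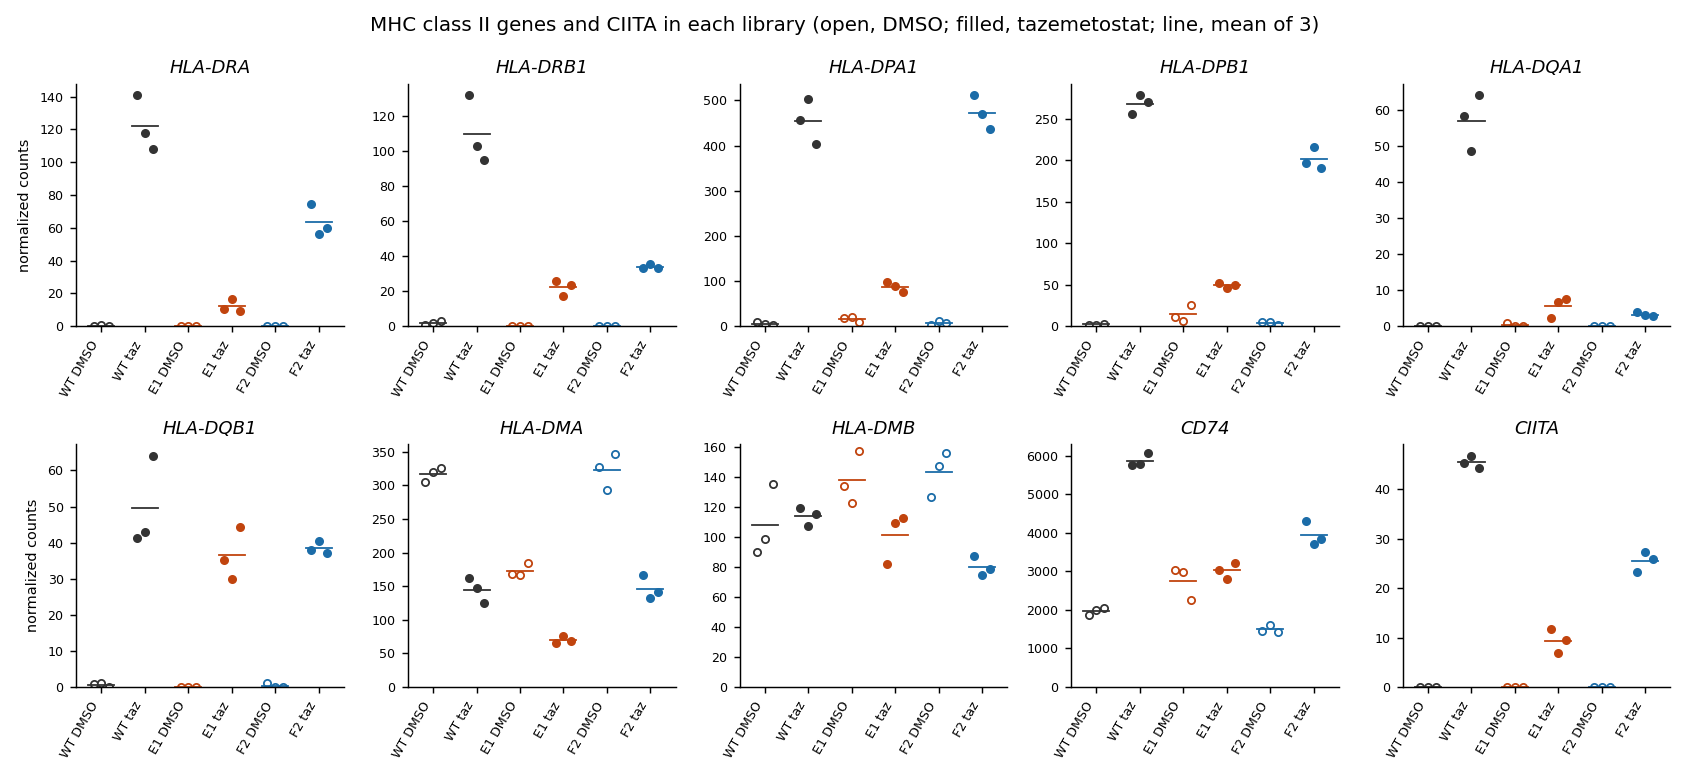
Normalized counts (vertical axis, linear, starting at 0) of the 10 genes in each of the 18 libraries, grouped on the horizontal axis by line and treatment ("taz", tazemetostat); open points are DMSO, filled points tazemetostat, and the line is the mean of 3. CIITA is at 0 in every DMSO library and at 44.3 to 46.8 in WT with tazemetostat, while HLA-DMA is higher in DMSO than with tazemetostat in each line.

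HLA-DRA encodes the alpha chain of HLA-DR and HLA-DRB1 its main beta chain, and both rose from near 0 in the 3 lines. HLA-DRA had 0 reads in 8 of 9 DMSO libraries and 1 read in the other. With tazemetostat HLA-DRA was at 141, 118 and 108 normalized counts in WT, 10.6, 16.4 and 9.42 in E1 and 74.8, 56.5 and 60.1 in F2. As for CIITA, the lines did not overlap and stood in the order WT, F2, E1. The rise of HLA-DRA was at least 4.30-fold in E1 and at least 19.5-fold in F2, and in WT the ratio to the 1 DMSO read was 390, with an exact 95% counting interval of 71.7 to 15930. Its log2 changes, in the order WT, E1, F2, were 6.62 ± 0.29, 3.68 ± 0.29 and 6.01 ± 0.29 (limma, adjusted p 3.28e-13, 2.4e-09 and 1.28e-12).

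HLA-DRB1 was at 0.873, 1.88 and 2.84 normalized counts in WT DMSO, which is at most 3 reads, and at 0 in the DMSO libraries of both clones. With tazemetostat it was at 132, 103 and 94.8 in WT, 25.6, 17.4 and 23.6 in E1, and 33.0, 35.3 and 33.3 in F2. Here WT stood apart from both clones, which were close to each other without overlapping. The rise was 58.9-fold in WT, at least 7.83-fold in E1 and at least 10.3-fold in F2, with log2 changes of 5.32 ± 0.26, 4.52 ± 0.26 and 5.12 ± 0.26 (limma, adjusted p 2.59e-12, 3.58e-11 and 4.57e-12). The ratio in WT rests on 6 reads in DMSO. HLA-DRB5, a near-identical copy whose reads the authors' counting could split with HLA-DRB1, was also at or under 1 read in DMSO. It was at 27.6, 28.1 and 14.8 in WT, 6.39, 1.93 and 5.65 in E1 and 5.83, 8.07 and 12.9 in F2 with tazemetostat.

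HLA-DPA1 and HLA-DPB1, the chain genes of HLA-DP, were the classical chain genes with reads in every DMSO library, and they rose in the 3 lines. HLA-DPA1 was at 8.73, 4.71 and 1.89 normalized counts in WT DMSO, 17.9, 19.3 and 9.74 in E1 DMSO, and 3.07, 10.4 and 6.07 in F2 DMSO. With tazemetostat it was at 456, 503 and 404 in WT, 98.0, 89.0 and 75.4 in E1, and 512, 469 and 438 in F2. F2 overlapped WT with tazemetostat, whereas every E1 library lay below both. The rise was 88.9-fold in WT, 5.59-fold in E1 and 72.7-fold in F2, and the log2 changes were 6.38 ± 0.37, 2.46 ± 0.37 and 6.10 ± 0.37 (limma, adjusted p 2.72e-11, 2.18e-05 and 5.89e-11).

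HLA-DPB1 was at 1.75, 1.88 and 2.84 normalized counts in WT DMSO, 11.6, 6.76 and 25.3 in E1 DMSO, and 5.12, 5.19 and 1.21 in F2 DMSO. With tazemetostat it reached 256, 279 and 271 in WT, 52.2, 45.5 and 49.9 in E1, and 197, 216 and 191 in F2. E1 started highest and ended lowest. The rise was 125-fold in WT, 3.38-fold in E1 and 52.4-fold in F2, with log2 changes of 6.43 ± 0.38, 1.87 ± 0.38 and 5.53 ± 0.38 (limma, adjusted p 2.67e-11, 0.000428 and 2.84e-10). The ratio in WT rests on 7 reads in DMSO, at most 3 per library and so at the floor, and that in F2 on 11 reads. The exons of HLA-DPA1 and HLA-DPB1 share 96 bases on opposite strands, and whether the authors' counting used strand was not given in the sources used here.

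The chains of HLA-DQ differed from each other in the clones. HLA-DQB1, the beta chain gene, had at most 1 read in each DMSO library, and with tazemetostat it was at 41.4, 43.0 and 64.0 normalized counts in WT, 35.1, 30.0 and 44.3 in E1 and 37.9, 40.4 and 37.0 in F2. Libraries of E1 overlapped those of both other lines, and the F2 libraries lay just under the lowest of WT. The rise was at least 12.9-fold in E1. The ratios in WT and F2 rest on 2 reads and 1 read in DMSO, at 81.7 (counting interval 21.4 to 658) and 112 (18.7 to 4223). Log2 changes were 5.01 ± 0.32, 5.21 ± 0.32 and 4.96 ± 0.32 in WT, E1 and F2 (limma, adjusted p 1.1e-10, 7.87e-11 and 1.38e-10).

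HLA-DQA1, the alpha chain gene, had 0 reads in 8 of 9 DMSO libraries and 1 read in an E1 library. With tazemetostat it was at 58.1, 48.6 and 64.0 normalized counts in WT but at 2.13, 6.77 and 7.54 in E1 and 3.88, 3.03 and 2.77 in F2. All WT libraries lay far above those of the clones, which overlapped each other. The rise in WT was at least 20.6-fold, the ratio in E1 was 18.4 with a counting interval of 2.79 to 745, and no fold is given for F2, whose treated libraries stood at about the floor. The log2 changes were 5.85 ± 0.36, 2.26 ± 0.36 and 2.07 ± 0.36 (limma, adjusted p 7.07e-11, 4.31e-05 and 9.5e-05). With 5 in place of 1 added before the log, the changes in E1 and F2 were 0.95 and 0.72 and no longer past the limit of 1. The ratio of HLA-DQA1 to HLA-DQB1 reads in the same tazemetostat library was 1.00 to 1.40 in WT, 0.0606 to 0.226 in E1 and 0.075 to 0.103 in F2, so WT did not overlap the clones. HLA-DQA2, a near-identical copy of HLA-DQA1, had no reads in DMSO and with tazemetostat was at 31.5, 32.7 and 39.4 in WT, 7.45, 9.67 and 8.48 in E1 and 3.88, 2.02 and 1.85 in F2.

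CD74, which encodes the invariant chain that fills the class II groove before peptide loading, was the member with abundant transcript in DMSO. It was at 1874, 1991 and 2059 normalized counts in WT DMSO, 3031, 2977 and 2258 in E1 DMSO, and 1463, 1609 and 1431 in F2 DMSO. With tazemetostat it was at 5759, 5790 and 6070 in WT, 3050, 2810 and 3232 in E1, and 4303, 3707 and 3853 in F2. In WT and F2 the treated libraries lay above the DMSO libraries, and in E1 they overlapped. CD74 rose 2.97-fold in WT and 2.63-fold in F2, with log2 changes of 1.57 ± 0.09 and 1.40 ± 0.09 (limma, adjusted p 3.65e-11 and 2.37e-10). In E1 the log2 change was 0.15 ± 0.09, with a 95% interval of -0.05 to 0.35 and an adjusted p of 0.213 by limma.

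HLA-DMA and HLA-DMB encode HLA-DM, which exchanges the invariant chain remnant for peptide, and neither rose. HLA-DMA was at 306, 319 and 326 normalized counts in WT DMSO and at 162, 148 and 124 with tazemetostat. In E1 it was at 168, 166 and 185 in DMSO and at 66.0, 75.4 and 67.8 with tazemetostat, and in F2 at 328, 293 and 347 and at 166, 132 and 141. The treated libraries lay below the DMSO libraries in each line. HLA-DMA fell to 0.456 of its DMSO mean in WT, 0.403 in E1 and 0.454 in F2, with log2 changes of -1.13 ± 0.12, -1.30 ± 0.12 and -1.14 ± 0.12 (limma, adjusted p 1.45e-07, 3.31e-08 and 1.8e-07). Its promoter is among the 4 shown with the X and Y letters.

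HLA-DMB did not pass the threshold in any line. Its DMSO libraries were at 90.0, 98.9 and 135 normalized counts in WT, 134, 123 and 158 in E1 and 127, 147 and 157 in F2. With tazemetostat they were at 119, 108 and 116 in WT, 82.0, 109 and 113 in E1 and 87.4, 74.7 and 78.6 in F2. Treated and DMSO groups overlapped in WT and did not in E1 and F2, where the treated libraries were the lower ones. The log2 changes were 0.10 ± 0.16, -0.45 ± 0.16 and -0.83 ± 0.16 (limma, adjusted p 0.612, 0.0318 and 0.000305), and with every library scaled to the same total the value in WT was -0.05. HLA-DMA shares 55 exon bases with BRD2 on the opposite strand, and BRD2 was at 11297 to 14948 normalized counts in these libraries. The part of that overlap in the counts was not tested. CIITA shares 2416 exon bases with DEXI on the opposite strand, and DEXI was at 431 to 829 in all libraries. The part of the DEXI overlap in the CIITA counts was not tested either.

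In WT, 8 of the 10 members passed the threshold upward and 1 downward, where 14.5% and 6.77% of all tested genes did so. In E1 these were 7 and 1 members, beside 11.3% and 3.78% of all genes, and in F2 they were 8 and 1, beside 13.3% and 3.71%. CD74 accounts for the difference between E1 and the other lines. These counts are a description, since 5 members (HLA-DRA, HLA-DRB1, HLA-DQA1, HLA-DQB1 and CIITA) had DMSO means under 10 in every line. They entered the test through their tazemetostat libraries. HLA-DPA1 and HLA-DPB1 had DMSO means over 10 in E1 alone (15.6 and 14.6). Both averaged under 10 over all DMSO libraries, so they too needed the tazemetostat libraries to enter.

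**Figure D2:**
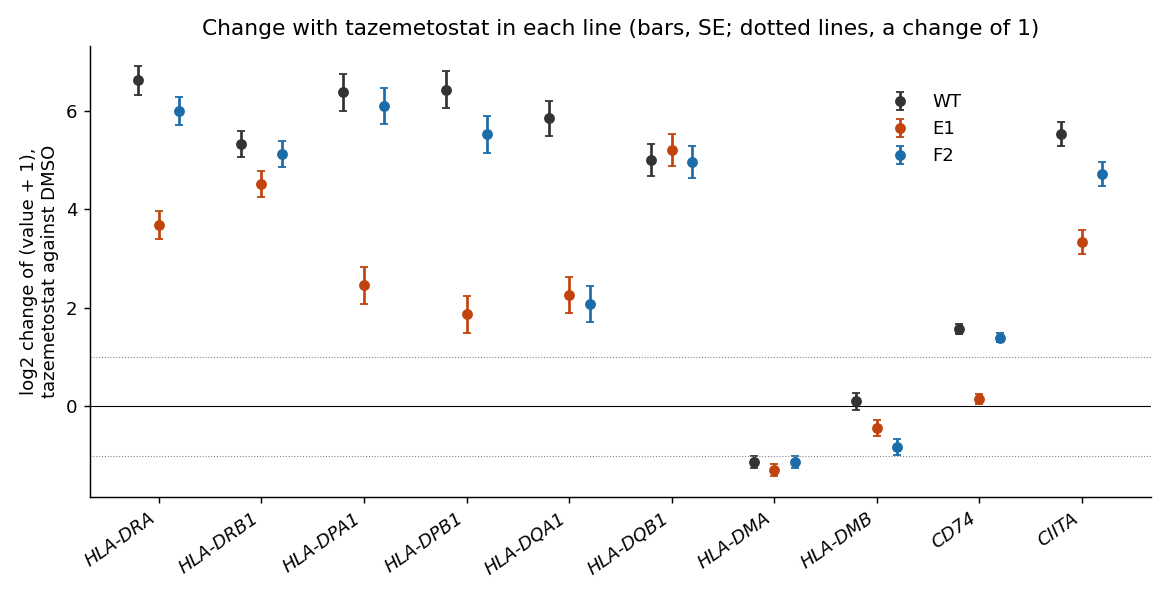
Log2 change of (value + 1) with tazemetostat against DMSO (vertical axis) for the 10 genes (horizontal axis) in WT, E1 and F2; points are the limma estimates, bars their SE, and dotted lines the limit of 1 in either direction. The 3 lines are close for HLA-DQB1 and HLA-DMA, E1 lies apart for HLA-DPA1, HLA-DPB1 and CD74, and HLA-DQA1 in both clones lies below WT.

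Per kilobase of exon (GENCODE v29 models matched by symbol, 10 of 10 found), the levels in WT with tazemetostat spanned a wide range. CD74 was at 1844 ± 53.8 normalized counts per kb (SD, n = 3). HLA-DPB1 (96.2 ± 4.09), HLA-DRA (95.6 ± 13.1), HLA-DRB1 (89.4 ± 15.9) and HLA-DPA1 (79.1 ± 8.64) each overlapped the next in that order, while the libraries of HLA-DPB1 lay above those of HLA-DPA1. They were followed by HLA-DMA at 57.1 ± 7.43 and HLA-DMB at 24.5 ± 1.29. HLA-DQB1 (10.1 ± 2.58) and HLA-DQA1 (8.22 ± 1.12) did not differ beyond their spread, and CIITA was lowest at 2.19 ± 0.0589. The lengths join all annotated exons of a gene: 20757 bases for CIITA, 6927 for HLA-DQA1, 4904 for HLA-DQB1 and 1280 for HLA-DRA. HLA-DQA2, with 1524 bases, was at 22.7 ± 2.78 per kb, although its normalized counts were lower than those of HLA-DQA1. The order of the genes thus depends on these models.

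Without EZH2 inhibition the clones differed from WT in few members, at low read numbers. In E1 against WT in DMSO, 2 members were higher and 1 lower, where 2.35% and 2.69% of all tested genes were called. HLA-DPA1 and HLA-DPB1 were the higher ones, by 1.56 ± 0.37 and 2.13 ± 0.38 on the log2 scale (limma, adjusted p 0.00483 and 0.00034), and each E1 library lay above each WT library. They were also higher in E1 than in F2, by 1.22 ± 0.37 and 1.65 ± 0.38 (limma, adjusted p 0.0156 and 0.00202), where 4.05% of all genes were called higher. In a fit of the compared groups alone neither passed in E1 against F2, with adjusted p of 0.126 for HLA-DPA1 and 0.128 for HLA-DPB1, and HLA-DPA1 did not pass in E1 against WT, with adjusted p of 0.128. HLA-DPA1 in E1 against F2 also had limma adjusted p of 0.0564, 0.0604 and 0.0958 without the first or second E1 or the first F2 DMSO library. HLA-DRB1 was the lower one in E1 and the single member called in F2 against WT (2.09% of all genes lower), at -1.46 ± 0.26 in both (limma, adjusted p 0.00046 in E1 and 0.000651 in F2). It rests on 3 reads or fewer per WT library, with 5 added before the log both values were -0.45, and with DESeq2 the adjusted p were 0.0542 and 0.069.

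CD74 and HLA-DMA also separated E1 from WT in DMSO, short of the limit. The log2 difference of CD74 from WT was 0.47 ± 0.09 in E1, with every library above WT, and -0.40 ± 0.09 in F2, with every library below (limma, adjusted p 0.00114 and 0.00562). HLA-DMA was at -0.87 ± 0.12 in E1 against WT (limma, adjusted p 2.73e-05), with every E1 library below every WT library. In F2 HLA-DMA was at 0.02 ± 0.12, and the libraries overlapped those of WT.

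With tazemetostat, E1 reached lower levels than WT in most members. In E1 against WT, 7 of 10 members were lower and none higher, where 5.95% of all tested genes were called lower. HLA-DQA1 and CIITA averaged under 10 outside WT with tazemetostat and entered the test through those libraries, so the count is a description. As a share of the WT mean, E1 stood at 9.94% for HLA-DRA, 9.62% for HLA-DQA1, 18.3% for HLA-DPB1, 19.2% for HLA-DPA1, 20.2% for HLA-DRB1 and 20.5% for CIITA. The log2 differences of these 6 genes ran from -3.28 ± 0.36 for HLA-DQA1 to -2.20 ± 0.25 for CIITA, with limma adjusted p between 3.27e-08 for HLA-DRA and 3.78e-05 for HLA-DPA1. HLA-DMA was the remaining one at -1.03 ± 0.12 (limma, adjusted p 1.19e-06), close to the limit, and fell short of it without the first WT tazemetostat library (-0.95). CD74 stood just short of the limit at -0.96 ± 0.09 (limma, adjusted p 1.36e-07), 51.6% of WT.

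In F2 against WT with tazemetostat, 2 of 10 members were lower, where 4.97% of all genes were called lower. These were HLA-DQA1 at -3.78 ± 0.36 and HLA-DRB1 at -1.66 ± 0.26 (limma, adjusted p 1.03e-07 and 4.11e-05), 5.67% and 30.8% of the WT mean. This count too is a description, since HLA-DQA1 entered the test through WT with tazemetostat. HLA-DRA (52.1% of WT), CIITA (56.0%) and CD74 (67.3%) lay below WT in every library without passing the limit of 1, at -0.93 ± 0.29, -0.81 ± 0.25 and -0.57 ± 0.09 (limma, adjusted p 0.0107, 0.00949 and 5.28e-05). HLA-DRA passed it without the third WT tazemetostat library (-1.01) or the first of F2 (-1.05). HLA-DPA1 stood at 104% of WT, a log2 difference of 0.06 with a 95% interval of -0.73 to 0.85. HLA-DPB1 stood at 74.9%, with every library below WT and a log2 difference of -0.42 ± 0.38 (limma, adjusted p 0.369; edgeR, adjusted p 0.0478).

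HLA-DQB1 was the classical chain gene whose level did not pass the test between any pair of lines with tazemetostat. E1 stood at 73.7% and F2 at 77.6% of the WT mean, and the log2 differences were -0.42 (95% interval -1.10 to 0.26) and -0.33 (-1.01 to 0.35). Between the clones, E1 was lower than F2 in 5 members, where 4.43% of all genes were called lower: HLA-DPA1 (-2.43 ± 0.37), HLA-DRA (-2.33 ± 0.29), HLA-DPB1 (-2.01 ± 0.38), CIITA (-1.39 ± 0.25) and HLA-DMA (-1.05 ± 0.12), with limma adjusted p from 2.42e-06 for HLA-DMA to 0.00047 for HLA-DPB1. For HLA-DMA the value without the first F2 tazemetostat library was -0.96. HLA-DRB1 was at -0.61 (95% interval -1.16 to -0.05) and HLA-DQA1 at 0.49 (-0.27 to 1.26) in E1 against F2, at limma adjusted p values of 0.0858 and 0.313. With near-identical copies summed, an alternative chosen after seeing the data, the HLA-DQA1 value was 1.13 with an adjusted p of 0.00839.

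**Figure D3:**
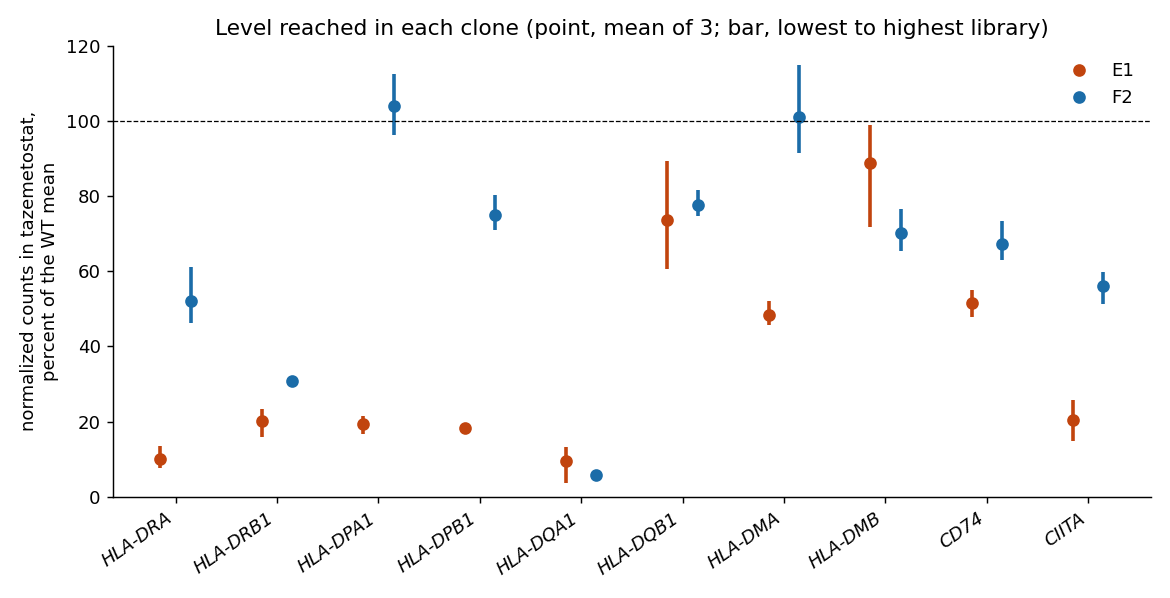
Level with tazemetostat in E1 and F2 as a percent of the WT mean (vertical axis, from 0; dashed line, 100%) for the 10 genes (horizontal axis); points are means of 3 libraries and bars run from the lowest to the highest library. E1 is at or under 20.5% for 6 genes, F2 is at 104% for HLA-DPA1 and 5.67% for HLA-DQA1, and both are near 75% for HLA-DQB1.

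The test of the difference between responses (how far the log2 change of one line with the drug exceeds that of another) called 6 members in E1 against WT, 1 in F2 against WT and 5 in E1 against F2, all downward, where 5.21%, 2.66% and 4.02% of all tested genes were called downward. The counts against WT are a description, since HLA-DQA1 and CIITA entered the test through WT with tazemetostat. HLA-DPB1, HLA-DPA1 and CD74 were called by limma and by edgeR. Their responses in E1 differed from those in WT by -4.56 ± 0.53, -3.93 ± 0.53 and -1.42 ± 0.13 (limma, adjusted p 2.99e-06, 1.46e-05 and 2.13e-07), and edgeR on the recovered reads gave -5.13, -3.95 and -1.43 with adjusted p of 2.53e-07, 1.11e-06 and 1.12e-07. Against F2 the differences were -3.66 ± 0.53, -3.64 ± 0.53 and -1.25 ± 0.13 (limma, adjusted p 8.26e-05, 8.09e-05 and 2.17e-06). The WT response of HLA-DPB1 rests on 7 DMSO reads and its F2 response on 11. For CD74, F2 and WT differed in response by -0.18 ± 0.13 (limma, adjusted p 0.356). HLA-DMA and HLA-DMB, with more DMSO reads than the HLA-DP genes, were not called, at -0.16 ± 0.17 and -0.55 ± 0.23 in E1 against WT (limma, adjusted p 0.485 and 0.0748), and HLA-DMB was at -0.93 ± 0.23 in F2 against WT (0.00591).

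HLA-DQA1, HLA-DRA and CIITA were called in E1 against WT by limma at -3.59 ± 0.52, -2.94 ± 0.40 and -2.20 ± 0.35 (adjusted p 2.99e-05, 1.9e-05 and 8e-05), HLA-DQA1 in F2 against WT at -3.78 ± 0.52 (2.53e-05), and HLA-DRA and CIITA in E1 against F2 at -2.33 ± 0.40 and -1.39 ± 0.35 (0.000504 and 0.00999). These genes had at most 1 read in each DMSO library. CIITA in both comparisons, HLA-DQA1 in F2 against WT and HLA-DRA in E1 against F2 had 0 DMSO reads in the compared lines. Their response differences are therefore the level differences with tazemetostat again, and not separate results. edgeR called none of the differences. In E1 against WT its values were -5.14, -1.51 and -2.28 for HLA-DQA1, HLA-DRA and CIITA, with adjusted p of 0.0856, 0.781 and 1. It gave -4.07 for HLA-DQA1 in F2 against WT, and -2.38 and -1.46 for HLA-DRA and CIITA in E1 against F2, each with an adjusted p of 1. The edgeR value was thus smaller in size than that of limma for HLA-DRA in E1 against WT and larger for the other 5.

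Set against CIITA in the same tazemetostat library, the members did not keep 1 ratio across lines. CIITA had 28 reads in E1, at most 11 per library, so the E1 ratios carry a large counting error. All ratios of a library also share its CIITA reads. HLA-DRB1 had 2.14 to 2.91 reads per CIITA read in WT and 2.18 to 2.57 in E1, which overlapped, and 1.29 to 1.42 in F2. HLA-DPA1 had 9.11 to 10.8 in WT and 8.00 to 13.1 in E1 but 16.9 to 22.0 in F2. HLA-DQB1 had 0.913 to 1.44 in WT, 3.00 to 4.70 in E1 and 1.43 to 1.63 in F2. CD74 had 124 to 137 in WT, 260 to 415 in E1 and 136 to 185 in F2. HLA-DRA had 2.44 to 3.11 in WT, 0.909 to 2.43 in E1 and 2.07 to 3.21 in F2, so F2 overlapped both other lines and the highest E1 library lay just under the lowest of WT.

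Other class II genes of the locus were mostly too low to test: 1 of 8 entered the fit. That gene, HLA-DOA, encodes a chain of HLA-DO, which restrains HLA-DM. It was at 38.4, 18.8 and 16.1 normalized counts in WT DMSO and 57.2, 62.7 and 76.4 with tazemetostat, at 52.7, 44.4 and 48.7 and then 67.1, 58.0 and 49.0 in E1, and at 20.5, 13.5 and 10.9 and then 51.5, 40.4 and 41.6 in F2. HLA-DOA rose in WT and F2, by 1.47 ± 0.27 and 1.55 ± 0.27 on the log2 scale (limma, adjusted p 0.000111 and 9.02e-05), while its value in E1 was 0.24 ± 0.27 (0.496). Like HLA-DPA1 and HLA-DPB1 it was higher in E1 than in WT in DMSO, by 1.06 ± 0.27 (limma, adjusted p 0.00768), and its response in E1 differed from that in WT by -1.23 ± 0.38 (0.0181). HLA-DPA2 had no reads in any library.

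The proteins that recruit CIITA to promoters were already transcribed in DMSO. Of 12 tested genes of the promoter complex, 1 rose in each line and none fell, a share no higher than that of all genes given above (14.5%, 11.3% and 13.3%): NLRC5, the related coactivator of class I genes. NLRC5 went from 129, 149 and 152 normalized counts in WT DMSO to 471, 493 and 582 with tazemetostat, and the log2 changes of WT, E1 and F2 were 1.84 ± 0.13, 1.03 ± 0.13 and 1.71 ± 0.13 (limma, adjusted p 5.1e-10, 2.43e-06 and 1.72e-09). RFX5, a subunit of the X box factor, lay between 4447 and 6272 in all 18 libraries. RFXAP, RFXANK, NFYA, NFYB, NFYC, CREB1, CREBBP, EP300, KAT2B and SMARCA4 did not pass the threshold in any line with tazemetostat.

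**Figure D4:**
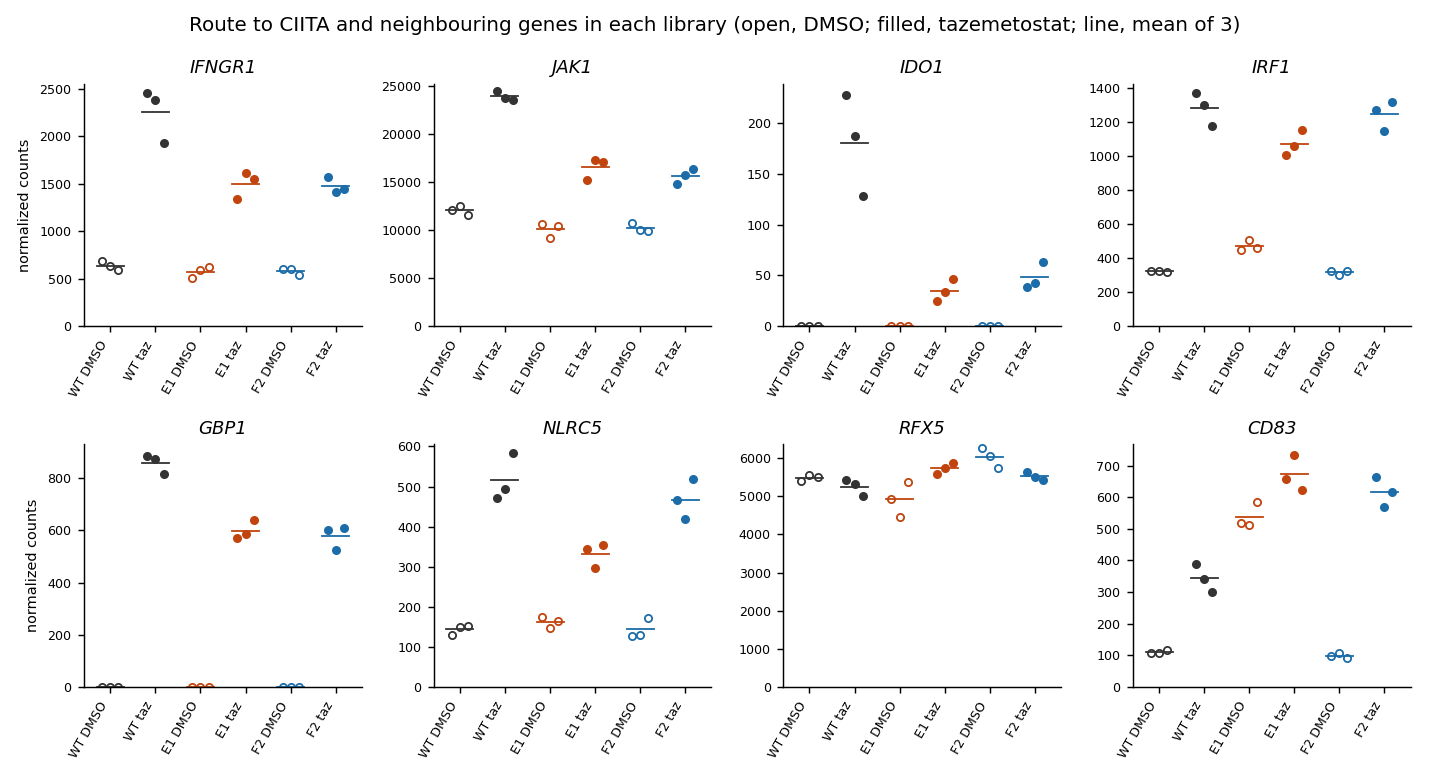
Normalized counts (vertical axis, linear, starting at 0) in the 18 libraries, by line and treatment on the horizontal axis, for IFNGR1, JAK1, IDO1, IRF1 and GBP1 of the interferon gamma route, NLRC5 and RFX5 of the promoter complex, and CD83; open points are DMSO, filled points tazemetostat, and the line is the mean of 3. GBP1 is at or near 0 in DMSO in the 3 lines, RFX5 stays between 4447 and 6272, and CD83 is high in E1 already in DMSO.

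Of the interferon gamma route to CIITA, 11 of 14 genes were tested, of which 5 were called higher in each line and none lower, where 14.5%, 11.3% and 13.3% of all tested genes were called higher in WT, E1 and F2. GBP1, GBP2 and IDO1 are 3 of the 5 and entered the test through their tazemetostat libraries alone, so the count is a description. IRF1, a transcription factor that acts on the CIITA gene, was at 326, 322 and 320 normalized counts in WT DMSO and 1370, 1297 and 1176 with tazemetostat. In E1 IRF1 was at 445, 506 and 460 and then 1005, 1055 and 1149, and in F2 at 322, 302 and 323 and then 1270, 1148 and 1314. IRF1 rose by 1.98 ± 0.08, 1.18 ± 0.08 and 1.97 ± 0.08 on the log2 scale in WT, E1 and F2 (limma, adjusted p 1.12e-13, 2.85e-10 and 1.12e-13). Its responses in E1 and WT differed by -0.80 ± 0.11, short of the limit (limma, adjusted p 2.43e-05). The response genes GBP1, GBP2 and IDO1 rose from near 0 in the 3 lines, GBP1 to 886, 875 and 816 in WT, 572, 586 and 640 in E1 and 602, 524 and 609 in F2.

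IFNGR1, the ligand-binding receptor chain, rose by 1.82 ± 0.10, 1.38 ± 0.10 and 1.35 ± 0.10 on the log2 scale in WT, E1 and F2 (limma, adjusted p 1.34e-11, 1.04e-09 and 1.29e-09). With tazemetostat GBP1, GBP2 and IDO1 lay below WT in every library of both clones. IDO1 was called lower in both, at -2.35 ± 0.28 in E1 and -1.88 ± 0.28 in F2 (limma, adjusted p 1.32e-06 and 1.61e-05), 19.3% and 26.6% of WT. GBP2 was called lower in E1 at -1.27 ± 0.24 (0.000208) and was at -0.77 ± 0.24 in F2 (0.0111). GBP1 was at -0.52 ± 0.15 and -0.57 ± 0.15 (0.00711 and 0.00343), under the limit. IFNG, the ligand, had no reads in DMSO and was too low to test. With tazemetostat IFNG was at 35.5, 26.2 and 20.9 normalized counts in WT, 5.32, 15.5 and 9.42 in E1 and 3.88, 10.1 and 12.9 in F2, so WT lay above both clones. CXCL9 and CXCL10 were also too low to test. With tazemetostat CXCL9 lay below WT in every library of both clones, while CXCL10 overlapped WT in both.

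In the endosomal processing list, 12 of 14 genes were tested. In WT 5 rose and 1 fell, in E1 1 rose and 1 fell, and in F2 2 rose and 1 fell, beside 14.5% higher and 6.77% lower over all genes in WT, 11.3% and 3.78% in E1 and 13.3% and 3.71% in F2. In E1 and F2 the shares that rose were near those of all genes. The gene that fell in each line was CTSS, the cathepsin that trims the invariant chain, at -1.46 ± 0.27 in WT, -1.79 ± 0.27 in E1 and -1.77 ± 0.27 in F2 (limma, adjusted p 9.55e-05, 1.59e-05 and 1.49e-05). CTSS was at 35.8, 32.0 and 37.9 normalized counts in WT DMSO and 12.8, 9.35 and 14.8 with tazemetostat, without overlap. CTSL, another cathepsin known to act on the invariant chain, rose in each line, by 1.66, 1.20 and 1.63 on the log2 scale. CTSD, CTSF, LGMN and CST3 were called higher in WT and CTSH in F2.

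Of 9 genes for co-stimulation and the antigen presenting cell surface, 5 were tested, of which 4 rose in WT and in F2 and 2 in E1, where 14.5% (WT), 13.3% (F2) and 11.3% (E1) of all genes were called higher. CD274, which encodes PD-L1, and ICOSLG rose in each line, and ICAM1 and CD83 rose in WT and F2. CD274 averaged under 10 over the DMSO libraries and entered the test through tazemetostat, so the count is a description. CD83, a surface protein known to stabilise class II on dendritic cells, was at 106, 108 and 115 normalized counts in WT DMSO, 98.3, 108 and 91.0 in F2 DMSO, and 520, 512 and 585 in E1 DMSO. With tazemetostat CD83 was at 390, 341 and 302 in WT, 664, 570 and 618 in F2 and 658, 735 and 624 in E1. Its log2 change was 1.63 ± 0.11 in WT and 2.63 ± 0.11 in F2, and 0.32 ± 0.11 in E1, under the limit (limma, adjusted p 1.7e-10, 1.49e-13 and 0.022), and in DMSO it was 2.28 ± 0.11 higher in E1 than in WT (1.64e-11).

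Markers of blood cells, the usual carriers of class II, were examined beside these results. PTPRC, the pan-leukocyte gene, was at most 1.85 normalized counts in any library, and FCER1A and CLEC9A had no reads at all. Of the 15 markers, 8 exceeded 3 reads in any library. ITGAX, a myeloid integrin gene too low to test, was at 0 in DMSO in WT and E1 and at most 1.04 in F2, and with tazemetostat at 11.8, 16.8 and 17.2 in WT, 13.8, 21.3 and 21.7 in E1 and 16.5, 10.1 and 21.3 in F2, above DMSO in every library. CSF1R, a macrophage receptor gene, lay between 41.1 and 113 in the 18 libraries and was 1.04 ± 0.20 higher on the log2 scale in E1 than in WT in DMSO (limma, adjusted p 0.000895). The summed level of the 15 markers was 80.4 to 97.1 in WT DMSO and 151 to 195 with tazemetostat. It was 118 to 149 and then 194 to 212 in E1, and 95.3 to 104 and then 275 to 280 in F2. PAX5, a B cell transcription factor that is also active in other tissues, was called higher in each line: it went from 6.11, 7.54 and 2.84 to 41.4, 42.1 and 35.7 in WT, from 4.46, 3.86 and 5.84 to 51.1, 67.7 and 59.4 in E1, and from 23.6, 13.5 and 20.6 to 183, 177 and 166 in F2. Without PAX5 the sums were 74.2 to 89.5 and 116 to 152 in WT, 113 to 145 and 135 to 145 in E1, and 71.7 to 85.1 and 97.1 to 114 in F2. PAX5 averaged under 10 over the DMSO libraries and entered the test through tazemetostat. Its order with tazemetostat, highest in F2 and lowest in WT, was not that of CIITA. The part of these markers in the class II values was not tested.

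Across the 18 libraries, log2(value + 1) of CIITA followed that of HLA-DRA (Pearson r = 0.99), HLA-DRB1 (0.97), HLA-DPA1 (0.96), HLA-DQB1 (0.96), HLA-DPB1 (0.95), CD74 (0.88) and HLA-DQA1 (0.88), while it was -0.64 with HLA-DMA and -0.57 with HLA-DMB. These values are descriptions, since the libraries share treatments and lines. The 5 other tested genes most like CIITA by this r were AC020601.1, A2M, SOD3, INHBA and SLC2A2, with r between 0.995 and 0.997. Each had 0 normalized counts in the 3 DMSO groups and stood in the order WT, F2, E1 with tazemetostat, for example A2M at 224 ± 28.5 (SD, n = 3), 111 ± 20.6 and 34.9 ± 6.33. Among the 5 genes most like CD74 were FBLIM1, MCAM, CHPF and C10orf54, with r between 0.967 and 0.978. CHPF, for example, was at 2089 ± 691 in E1 DMSO and 2111 ± 260 with tazemetostat, against 1482 ± 86.7 and 4081 ± 215 in WT.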

How the data were processed

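The authors deposited 1 table of normalized gene counts, per its name and values a signal in reads divided by a size factor per library. Per the submitters' processing notes the tools were Trim Galore 0.4.4, STAR 2.6.0a, HTSeq and DESeq2 with genome build hg19, while the annotation and the strand setting were not given in the sources used here. Per the labels' protocols the RNA was poly(A) selected and prepared with a stranded kit. Values divided by the step of their library, its smallest value above 0, were whole reads for 100% of values within 1e-06. The size factors were 0.812 to 1.145. The factor of the second F2 tazemetostat library is too near 1 for its steps to be told from rounding by an automatic check, although its values were whole too. No pair of replicates was identical, and their chi-square per gene was 2.32 to 61.9. The pairs of E1 DMSO libraries were the highest, at 32.9, 29.7 and 61.9, and the fit gives all groups a shared spread per gene. Without molecular identifiers, PCR copies count as reads, so intervals and floors describe counting error alone.

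Groups came from the sample titles. limma 3.58.1 in R 4.3.3 (lmFit, eBayes with a trend) was fitted on log2(value + 1) to 6 group means over the 16154 genes with a mean of at least 10, and 12 contrasts were adjusted by Benjamini-Hochberg over those genes. Called genes had a log2 change of 1 or more in size together with an adjusted p below 0.05. The fit was tested on simulated data. Same-numbered libraries come from no shared animal or stated batch. Their deviations from the group means correlated above 0.1 in every pair for F2 against WT in DMSO alone (0.108 to 0.375). The reported values come from the fit without pairing in every comparison, F2 against WT in DMSO included. Pairing by the numbers in the titles was run as an alternative, the replicate block, and changed no call of a single gene.

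Alternatives were other pseudocounts (0.5 and 5), filters (a mean of 1, 50, or none), no fold limit, scaling to the same total or by TMM, only the groups of a contrast, a replicate block, leaving out each library, the recovered reads in edgeR 4.0.16 (quasi-likelihood) or DESeq2 1.42.0 (Wald test), and, chosen after seeing the data, near-identical copies summed. All 10 members were named. From each other list the text names genes called with tazemetostat in any line, up to 6 by size, and genes without reads; JAK1, RFX5, IFNG, HLA-DRB5, HLA-DQA2, CTSH, ITGAX, CSF1R and untested or uncalled genes were named after their values were seen. For CIITA and CD74 the 5 genes of highest Pearson r were taken. A gene of the interferon list and a gene like CD74 are not reported here. The members and lists were chosen with earlier results of these data known. Promoters came from RefSeq (GRCh38.p14), and figures from matplotlib 3.10.9 in Python 3.11.15.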

Additional observations from a re-analysis of the deposited data

Results flagged for a closer look

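The results here were marked because the test of the difference between the responses of 2 lines called a member. In E1 minus WT these were CD74 at -1.42, CIITA at -2.20, HLA-DPA1 at -3.93, HLA-DPB1 at -4.56, HLA-DQA1 at -3.59 and HLA-DRA at -2.94 (log2, limma). In F2 minus WT it was HLA-DQA1 at -3.78. In E1 minus F2 they were CD74 at -1.25, CIITA at -1.39, HLA-DPA1 at -3.64, HLA-DPB1 at -3.66 and HLA-DRA at -2.33. E1 enters 11 of these 12 differences and the comparisons share libraries, so they are not independent of each other. CIITA, HLA-DQA1 in F2 minus WT and HLA-DRA in E1 minus F2 had 0 DMSO reads in the compared lines. Their values repeat the level differences with tazemetostat. HLA-DQA1 and CIITA also entered the test through WT with tazemetostat. edgeR and DESeq2 on the recovered reads each called the differences of CD74, HLA-DPA1 and HLA-DPB1 and none of the others. DESeq2 gave no adjusted p for HLA-DQA1 in F2 minus WT, so it did not assess that difference.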

How the results depend on the processing

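Alternatives were tallied for 78 single-gene results of the members, namely all members with tazemetostat within and between lines and those called elsewhere. Of these, 50 kept their direction and their side of the threshold under every alternative in which they were tested. The filter at a mean of 50 tested 40 of the 78. With a pseudocount of 5, the members called were 0 in F2 against WT in DMSO, 1 in E1 against F2 in DMSO and 2 in the response of F2 minus WT. With a mean of at least 50, which leaves 5 members in the test, they were 4, 3 and 4 with tazemetostat in WT, E1 and F2, 0 in F2 against WT in DMSO, 3, 0 and 3 with tazemetostat in E1 against WT, F2 against WT and E1 against F2, and 3, 0 and 3 for the responses in the same order. Without a fold limit they were 5, 2 and 4 in DMSO for E1 against WT, F2 against WT and E1 against F2, 6 in F2 against WT with tazemetostat and 2 in the response of F2 minus WT. A fit of the compared groups alone called 0 in E1 against F2 in DMSO. edgeR called 3, 0 and 3 in the responses of E1 minus WT, F2 minus WT and E1 minus F2. DESeq2 called the same numbers there and 0 in F2 against WT in DMSO, with 8 members given an adjusted p. The causes were not tested, apart from the smaller number of genes under the stricter filter.

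With 1 library left out, the count ran from 1 to 2 in E1 against F2 in DMSO and from 1 to 2 in the response of F2 minus WT, where it was 2 without the third WT, the first F2 or the third F2 DMSO library. The replicate block left all 78 gene results and all counts within the same call, including 1 in F2 against WT in DMSO, 9 in WT, 8 in E1 and 9 in F2 with tazemetostat. Values that changed sign were all under the limit. HLA-DMB in WT was -0.0506 with the same total, and with 1 library left out it ran from -0.0206 (without the first WT DMSO library) to 0.271. With tazemetostat and 1 library left out, HLA-DMA in F2 against WT ran from -0.0854 (without the third WT library; -0.0758 without the first of F2) to 0.102, HLA-DPA1 there from -0.0221 (without the third WT library) to 0.136, and HLA-DQB1 in E1 against F2 from -0.235 to 0.0385 (without the second E1 library). HLA-DMA in E1 against WT with tazemetostat was -0.99 with a pseudocount of 5, -0.97 with the same total and -0.997 without the first E1 library, all short of the limit. CIITA in the response of E1 minus F2 had an adjusted p of 0.0868 by limma without a filter. Scaling to the same total moved the median of all genes by -0.151 in WT with tazemetostat, 0.146 in F2 against WT with tazemetostat and 0.123 in the response of F2 minus WT. Depth limits the DMSO side: 4 members had at most 1 read in each DMSO library, so their folds are bounds or wide intervals. The WT folds of HLA-DRB1 and HLA-DPB1 rest on 6 and 7 DMSO reads and are given without an interval.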
